A study of Homo sapiens with 6 samples.

Results

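The MYC and MAX network is a set of 10 genes for transcription factors of the basic helix-loop-helix leucine zipper family, chosen by gene symbol: MYC, MYCN, MAX, MXD1, MXD3, MXD4, MXI1, MNT, MLX and MGA. All 10 were found among the 23844 gene symbols of the deposited tables, and the FPKM of a gene's isoforms, an abundance the authors scaled for transcript length and library depth, were summed in each library. PolyA RNA of 6 lymphoma cultures was sequenced, 1 library each: ibrutinib-resistant and idelalisib-resistant DAUDI cells, ibrutinib-resistant and idelalisib-resistant DOHH2 cells, and the DAUDI and DOHH2 cultures labelled WT. DAUDI stands for Burkitt lymphoma and DOHH2 for follicular lymphoma, and both are established cell lines. Ibrutinib blocks the kinase BTK and idelalisib blocks the delta form of PI3 kinase, which both act below the B cell receptor. The labels do not give how resistance was raised, whether a culture was a clone, or whether drug was present at harvest.

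MAX is the common partner of the network. MYC and MYCN bind DNA as heterodimers with MAX at E-box sequences and activate genes of growth and ribosome production, whereas the MXD proteins, MXI1 and MNT pair with MAX at the same sequences and recruit SIN3 and histone deacetylase corepressors. MGA pairs with MAX in a Polycomb complex, PRC1.6, and MLX is a MAX-like partner that pairs with MXD1, MXD4, MNT and the glucose-sensing protein MLXIP (MondoA). Burkitt lymphoma is defined by translocations that place MYC beside an immunoglobulin locus.

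Before any comparison, the 2 WT-labelled libraries resembled each other more than the resistant libraries of their own lines. Across genes, which are not independent replicates, Pearson's r of log2(FPKM + 1) between them was 0.958, against 0.943 between the 2 resistant DAUDI libraries, 0.968 between the 2 resistant DOHH2 libraries, and 0.698 to 0.723 between any resistant and any WT-labelled library. CDH1 (E-cadherin) was 0.0461 to 0.207 FPKM in resistant DAUDI libraries and at most 0.00639 FPKM in resistant DOHH2 libraries, against 26.0 and 26.6 FPKM in the WT-labelled DAUDI and DOHH2 libraries. Differences from a WT-labelled library are therefore given for the libraries so labelled. Of 10 B cell markers, 9 or 10 reached 1 FPKM in every library. Of 9 stromal and epithelial markers, 1 reached 1 FPKM in each library. That was CDH1 in the WT-labelled libraries. In ibrutinib- and idelalisib-resistant DAUDI it was PECAM1 (2.65 and 2.21 FPKM), and in ibrutinib- and idelalisib-resistant DOHH2 it was DCN (7.31 and 3.18 FPKM). The summed FPKM of 8 myeloid markers was 26.0 to 29.3 in the 4 resistant libraries. It was 0.222 to 2.22 in the 2 WT-labelled ones. In resistant DAUDI, LYZ was highest, and 4 and 5 of the 8 reached 1 FPKM in the ibrutinib- and idelalisib-resistant library. In resistant DOHH2 the sum was nearly all CD33, at 26.2 and 29.1 FPKM in the ibrutinib- and idelalisib-resistant library. No other myeloid marker reached 1 FPKM there. The sum of 9 T and NK markers was 1.48 to 7.64 over all 6 libraries. The part of these genes in the results was not tested, and in bulk RNA fewer cells of a type and less RNA per cell cannot be told apart. Read counts were not used here. The deposited coverage per FPKM, a relative measure of depth, was 0.935 to 1.04 times that of the WT-labelled DAUDI library in all libraries but ibrutinib-resistant DAUDI, where it was 1.42 times.

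Promoters of MXI1, MXD4 and MNT are shown first. MXI1 is transcribed from 3 starts that were used unequally, and MXD4 and MNT hold the canonical E-box bound by MAX dimers. The sequences are from RefSeq (GRCh38.p14), written 5′ to 3′ on the gene's strand from 250 bases before to 50 after a transcription start, with CACGTG in capitals.
MXI1 start 1, plus strand, chr10:110207355-110207654: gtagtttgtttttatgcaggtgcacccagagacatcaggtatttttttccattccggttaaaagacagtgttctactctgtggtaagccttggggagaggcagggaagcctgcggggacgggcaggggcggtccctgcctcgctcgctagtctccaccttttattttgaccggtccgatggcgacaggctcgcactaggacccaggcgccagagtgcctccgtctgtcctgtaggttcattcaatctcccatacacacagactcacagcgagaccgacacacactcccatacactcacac
MXI1 start 2, plus strand, chr10:110209981-110210280: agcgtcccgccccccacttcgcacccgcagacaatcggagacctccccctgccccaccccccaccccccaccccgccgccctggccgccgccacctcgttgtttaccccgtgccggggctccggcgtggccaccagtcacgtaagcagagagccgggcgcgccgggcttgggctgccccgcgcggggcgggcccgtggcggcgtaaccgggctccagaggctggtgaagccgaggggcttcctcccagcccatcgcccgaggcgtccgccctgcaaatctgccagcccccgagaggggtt
MXI1 start 3, plus strand, chr10:110225746-110226045: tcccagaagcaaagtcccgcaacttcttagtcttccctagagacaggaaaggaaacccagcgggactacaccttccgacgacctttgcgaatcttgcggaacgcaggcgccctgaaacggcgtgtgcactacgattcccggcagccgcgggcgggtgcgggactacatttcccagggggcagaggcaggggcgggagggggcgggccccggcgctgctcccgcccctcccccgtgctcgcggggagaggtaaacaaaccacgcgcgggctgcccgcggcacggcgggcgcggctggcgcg
MXD4, minus strand, chr4:2262060-2262359: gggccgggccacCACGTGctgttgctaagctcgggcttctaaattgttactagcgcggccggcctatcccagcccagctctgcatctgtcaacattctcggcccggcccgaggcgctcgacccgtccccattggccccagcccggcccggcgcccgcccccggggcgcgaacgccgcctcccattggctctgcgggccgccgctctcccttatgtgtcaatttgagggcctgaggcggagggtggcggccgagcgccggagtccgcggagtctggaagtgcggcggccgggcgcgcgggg
MNT, minus strand, chr17:2401011-2401310: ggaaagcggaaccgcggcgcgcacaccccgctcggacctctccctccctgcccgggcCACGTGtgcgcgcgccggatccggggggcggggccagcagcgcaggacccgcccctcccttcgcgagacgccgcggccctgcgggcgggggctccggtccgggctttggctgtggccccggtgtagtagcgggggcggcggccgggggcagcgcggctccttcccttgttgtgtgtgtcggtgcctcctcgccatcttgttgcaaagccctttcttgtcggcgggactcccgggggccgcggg
The motif CACGTG reads the same on both strands. It begins at position -238 in the MXD4 promoter, -193 in the MNT promoter and -50 in that of MLX, counted from the transcription start. None of the 3 MXI1 promoters holds these letters. Nor do those of MXD3 and MGA, which, like MXD4 and MNT, passed against a WT-labelled library below. The summed level of MLX, which holds the motif, did not pass in the main fit of either line. Any link between the motif and these levels was not tested. Promoters were available for 9 members, 14 in all, and 3 of the 14 (21.4%) hold CACGTG, against 2548 of 35116 promoters of all genes (7.26%).

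MYC was the most abundant member in all 6 libraries. It stood at 117 and 192 FPKM in the ibrutinib- and idelalisib-resistant DAUDI libraries, at 127 and 145 FPKM in the ibrutinib- and idelalisib-resistant DOHH2 libraries, and at 66.7 and 79.1 FPKM in the WT-labelled DAUDI and DOHH2 libraries. The 4 resistant libraries were all above both WT-labelled ones, the resistant libraries of the 2 lines overlapped, and idelalisib-resistant DAUDI was highest. The share of all genes with resistant and WT-labelled libraries apart in this way was not counted. MYC took 54.9% and 70.3% of the summed FPKM of the 10 members in ibrutinib- and idelalisib-resistant DAUDI, 62.6% and 64.0% in ibrutinib- and idelalisib-resistant DOHH2, and 50.7% and 54.8% in WT-labelled DAUDI and DOHH2. All 6 MYC values lie 1.06 to 1.08 times above the upper confidence bound deposited beside them, and they are the only 6 of 156 isoform values of the members outside their bounds; the bounds' midpoints keep the same order of libraries. MYCN, the paralogue best known from neuroblastoma, was listed at 0 in all 6 libraries. MYCL, the third MYC gene, reached 2.96 and 0.958 FPKM in ibrutinib- and idelalisib-resistant DAUDI, 0.626 and 0.461 FPKM in ibrutinib- and idelalisib-resistant DOHH2, and 0.279 and 0.234 FPKM in WT-labelled DAUDI and DOHH2.

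**Figure D1:**
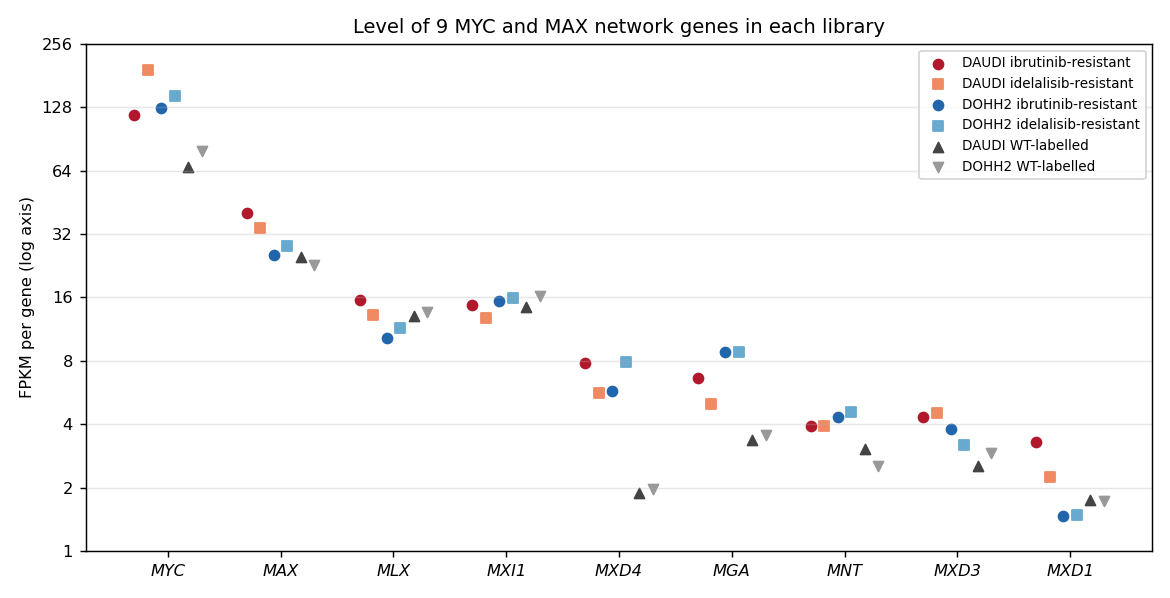
FPKM per gene (log axis) of 9 network genes in each of the 6 libraries, 1 point per library; MYCN is not drawn because it was listed at 0 throughout. MYC lies at 66.7 to 192 FPKM, MAX at 22.7 to 40.3 FPKM, and MXD4 at 5.60 to 7.93 FPKM in resistant and 1.89 to 1.96 FPKM in WT-labelled libraries.

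In the deposited hg19 annotation the members named below lie at chr14:65472819-65569413 (MAX), chr10:111967363-112047123 (MXI1), chr4:2249160-2263739 (MXD4), chr17:2287354-2304258 (MNT), chr15:41952610-42062141 (MGA) and chr17:40719078-40725221 (MLX), each from the first to the last base of its isoforms. MAX ranked second in every library. Its levels were 40.3 and 34.1 FPKM in ibrutinib- and idelalisib-resistant DAUDI, 25.5 and 28.1 FPKM in ibrutinib- and idelalisib-resistant DOHH2, and 24.8 and 22.7 FPKM in WT-labelled DAUDI and DOHH2. Both resistant DAUDI libraries lay above the other 4. The ratio of MYC to MAX FPKM was 2.91 and 5.63 in ibrutinib- and idelalisib-resistant DAUDI, 4.95 and 5.15 in ibrutinib- and idelalisib-resistant DOHH2, and 2.69 and 3.49 in WT-labelled DAUDI and DOHH2, so ibrutinib-resistant DAUDI fell between the WT-labelled libraries in this ratio.

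Among the MAX partners that act as repressors, MXI1 was the most abundant and varied least. MXI1 had 14.7 and 12.7 FPKM in ibrutinib- and idelalisib-resistant DAUDI, 15.5 and 15.9 FPKM in ibrutinib- and idelalisib-resistant DOHH2, and 14.5 and 16.3 FPKM in WT-labelled DAUDI and DOHH2. The groups overlapped. MXD4 varied most of all members. It had 7.79 and 5.60 FPKM in ibrutinib- and idelalisib-resistant DAUDI, and 5.76 and 7.93 FPKM in ibrutinib- and idelalisib-resistant DOHH2. WT-labelled DAUDI and DOHH2 were lower, at 1.89 and 1.96 FPKM.

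MXD3, described in cycling cells, had 4.33 and 4.51 FPKM in ibrutinib- and idelalisib-resistant DAUDI, 3.77 and 3.19 FPKM in ibrutinib- and idelalisib-resistant DOHH2, and 2.52 and 2.91 FPKM in WT-labelled DAUDI and DOHH2. MXD1, known for its rise during differentiation, was the lowest detected member, at 3.29 and 2.23 FPKM in ibrutinib- and idelalisib-resistant DAUDI, 1.47 and 1.49 FPKM in ibrutinib- and idelalisib-resistant DOHH2, and 1.74 and 1.72 FPKM in WT-labelled DAUDI and DOHH2. Resistant DAUDI was thus the high group for both genes, and resistant DOHH2 lay below the WT-labelled libraries for MXD1. MNT, the broadly expressed antagonist of MYC, had 3.93 and 3.92 FPKM in ibrutinib- and idelalisib-resistant DAUDI, 4.34 and 4.59 FPKM in ibrutinib- and idelalisib-resistant DOHH2, and 3.05 and 2.54 FPKM in WT-labelled DAUDI and DOHH2.

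MGA had 6.61 and 4.99 FPKM in ibrutinib- and idelalisib-resistant DAUDI, 8.86 and 8.79 FPKM in ibrutinib- and idelalisib-resistant DOHH2, and 3.35 and 3.55 FPKM in WT-labelled DAUDI and DOHH2. Resistant DOHH2 was the high pair for MGA. MLX had 15.5 and 13.2 FPKM in ibrutinib- and idelalisib-resistant DAUDI, 10.2 and 11.5 FPKM in ibrutinib- and idelalisib-resistant DOHH2, and 13.1 and 13.6 FPKM in WT-labelled DAUDI and DOHH2. Resistant DOHH2 was the low pair for MLX. Summed over the 4 MXD family genes, MNT and MGA, the repressive partners reached 40.7 and 34.0 FPKM in ibrutinib- and idelalisib-resistant DAUDI, 39.7 and 41.8 FPKM in ibrutinib- and idelalisib-resistant DOHH2, and 27.0 and 29.0 FPKM in WT-labelled DAUDI and DOHH2. The ratio of MYC to that sum was 2.88 and 5.66 in ibrutinib- and idelalisib-resistant DAUDI, 3.19 and 3.46 in ibrutinib- and idelalisib-resistant DOHH2, and 2.47 and 2.73 in WT-labelled DAUDI and DOHH2.

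**Figure D2:**
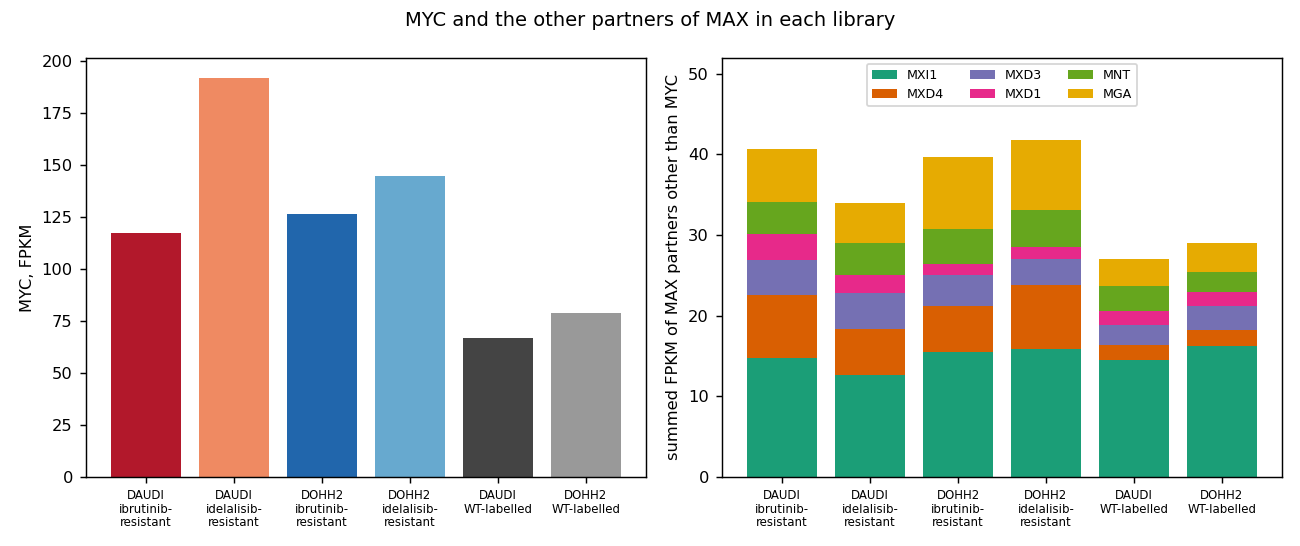
MYC FPKM (left) and the stacked FPKM of 6 repressive MAX partners (right) in each library, 1 bar per library. MYC is highest in idelalisib-resistant DAUDI at 192 FPKM, the library with the lowest partner sum among the resistant ones at 34.0 FPKM.

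The Burkitt line was compared with the follicular line in the 4 resistant libraries, with the 2 drug states of a line as its replicates, using limma on log2(FPKM + 1) over 12337 genes that reached 1 FPKM in at least 1 library. Of the 9 members tested, 0 passed an adjusted p of 0.05, against 27.3% of all genes, while 3 passed an unadjusted p of 0.05. Over all genes, 5287 of 12337 passed an unadjusted p of 0.05. MYC did not differ detectably between DAUDI and DOHH2: the difference was 0.15 (SE 0.29, 95% interval -0.69 to 0.98, limma adjusted p = 0.725), and it was -0.20 without idelalisib-resistant DAUDI. The 3 members were MAX at 0.46 (SE 0.13, limma adjusted p = 0.0792), MXD1 at 0.59 (SE 0.18, limma adjusted p = 0.0901) and MGA at -0.54 (SE 0.17, limma adjusted p = 0.103). MAX (0.41, limma adjusted p = 0.0324) and MGA (-0.58, limma adjusted p = 0.0453) passed once libraries were rescaled by the median of ratios. In all, each passed in 2 of 13 alternative settings. MXD1 passed without idelalisib-resistant DAUDI, a fit that leaves 1 DAUDI library and so holds no spread within DAUDI. The remaining members differed by -0.18 to 0.37 with limma adjusted p of 0.14 or more. As nothing states that the libraries came from separate cultures of 1 state, p-values measure only the spread between these libraries.

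Against the library labelled WT, MXD4 was higher in the resistant libraries of both lines. In DAUDI, 2 of 9 members were higher and 0 lower, against 22.3% of all genes higher and 41.6% called in either direction. MXD4 rose by 1.40 (SE 0.29, limma adjusted p = 0.0372) and MXD3 by 0.62 (SE 0.14, limma adjusted p = 0.0405). In DOHH2, 3 of 9 members were higher and 0 lower, against 21% of all genes higher and 40% in either direction. MXD4 rose by 1.39 (SE 0.29, limma adjusted p = 0.0385), MGA by 1.11 (SE 0.20, limma adjusted p = 0.027) and MNT by 0.63 (SE 0.11, limma adjusted p = 0.0254). With 9 members tested, these counts are not read as a property of the network. The lone WT-labelled library of a line was assumed to vary like the resistant pairs, and the spread rests on 2 residual degrees of freedom. The calls of MXD4 and MXD3 were lost without any 1 resistant library (MXD4 limma adjusted p = 0.0751 to 0.151, MXD3 0.101 to 0.104), and those of MGA and MNT without either DOHH2 library (0.127 to 0.147). Other members passed in DAUDI under single alternatives: MAX with median-of-ratios scaling (0.40, limma adjusted p = 0.0427) and upper quartile scaling (0.52, limma adjusted p = 0.0248), MGA with upper quartile scaling (0.59, limma adjusted p = 0.0398). Without idelalisib-resistant DAUDI, MGA (0.81) and MXD1 (0.65) passed too. That fit sets 1 DAUDI library against 1, and its residual spread comes from the DOHH2 pair alone. In DOHH2, MLX was lower with median-of-ratios scaling (-0.43, limma adjusted p = 0.0461).

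MYC was above the WT-labelled library by 1.16 in DAUDI (SE 0.36, 95% interval 0.09 to 2.23, limma adjusted p = 0.0812) and by 0.77 in DOHH2 (SE 0.36, 95% interval -0.30 to 1.84, limma adjusted p = 0.181), and neither passed. Taken 1 library against 1 with no test, MYC and MXD4 were higher by at least 1 in idelalisib-resistant DAUDI (31.1% of all genes passed that size in either direction) and MXD4 in ibrutinib-resistant DAUDI (34.9%), while MXD4 and MGA were in ibrutinib-resistant DOHH2 (30.6%) and idelalisib-resistant DOHH2 (31.8%). Without ibrutinib-resistant DAUDI, the fitted DAUDI value of MYC was 1.51. MYC passed there, but that fit sets 1 DAUDI library against 1, and its residual spread comes from the DOHH2 pair alone. As ratios of FPKM to the WT-labelled library of the line, MYC was 1.76 and 2.88 in ibrutinib- and idelalisib-resistant DAUDI and 1.6 and 1.83 in ibrutinib- and idelalisib-resistant DOHH2. The comparisons between resistant and WT-labelled libraries were also set against each other between lines: 0 of 9 members passed, against 9.6% of all genes, so a call in 1 line and not in the other is not shown to differ between lines. For MGA this difference was -0.48 (SE 0.28, limma adjusted p = 0.353) and for MNT -0.34 (SE 0.15, limma adjusted p = 0.254). MXD1 passed in this comparison without idelalisib-resistant DAUDI (0.78, against 0.58 and limma adjusted p = 0.305 with it). That fit, too, leaves 1 resistant DAUDI library.

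**Figure D3:**
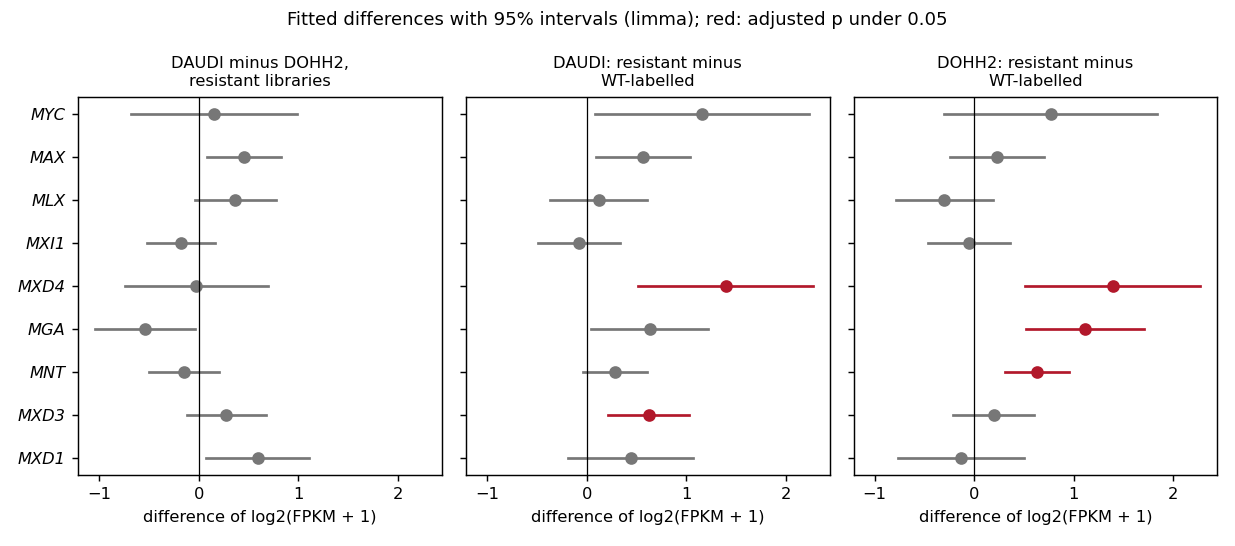
Fitted differences of log2(FPKM + 1) with 95% intervals for 9 members: DAUDI minus DOHH2 among resistant libraries (left), and resistant minus WT-labelled in DAUDI (middle) and in DOHH2 (right), with adjusted p under 0.05 in red. None is red on the left, MXD4 and MXD3 are in the middle, and MXD4, MGA and MNT are on the right.

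The summed level of MXI1 varied little, while the share of 1 of its 3 isoforms, NM_005962, differed between resistant and WT-labelled libraries. The third start gives isoform NM_005962, which had 9.47 and 8.14 FPKM in ibrutinib- and idelalisib-resistant DAUDI, 9.02 and 8.60 FPKM in ibrutinib- and idelalisib-resistant DOHH2, and 3.21 and 3.60 FPKM in WT-labelled DAUDI and DOHH2. It made up 64.2% and 64.0% of MXI1 in ibrutinib- and idelalisib-resistant DAUDI, 58.4% and 54.2% in ibrutinib- and idelalisib-resistant DOHH2, and 22.1% in each WT-labelled library. In a fit over 18439 isoforms, made after these values were seen, NM_005962 rose by 1.22 in DAUDI (SE 0.14, limma adjusted p = 0.0191), where 15% of isoforms were higher, and by 1.09 in DOHH2 (SE 0.14, limma adjusted p = 0.0221), where 15.3% were higher. Its DAUDI minus DOHH2 difference among resistant libraries was -0.0036 (SE 0.12, limma adjusted p = 1). Leaving out either DOHH2 library gave limma adjusted p of 0.0958 in DAUDI and 0.126 to 0.129 in DOHH2, and leaving out ibrutinib-resistant DAUDI gave 0.0503 in DAUDI.

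The first start gives isoform NM_130439, with 3.66 and 1.42 FPKM in ibrutinib- and idelalisib-resistant DAUDI, 6.43 and 6.53 FPKM in ibrutinib- and idelalisib-resistant DOHH2, and 9.92 and 7.88 FPKM in WT-labelled DAUDI and DOHH2. All 4 resistant libraries were below both WT-labelled ones, but the differences did not pass (DAUDI -1.70, limma adjusted p = 0.0863; DOHH2 -0.25, limma adjusted p = 0.733). The DAUDI difference passed without idelalisib-resistant DAUDI (-1.23) and without ibrutinib-resistant DAUDI (-2.17). Each of these fits sets 1 DAUDI library against 1, and its residual spread comes from the DOHH2 pair alone. NM_001008541, of the second start, had 1.61 and 3.15 FPKM in ibrutinib- and idelalisib-resistant DAUDI, 0.0012 and 0.726 FPKM in ibrutinib- and idelalisib-resistant DOHH2, and 1.37 and 4.81 FPKM in WT-labelled DAUDI and DOHH2. The isoforms begin 2626 and 18399 bases after the first in the deposited hg19 annotation, and the promoters 2626 and 18391 bases after the first in GRCh38.p14, which is how they were matched. FPKM of isoforms that share exons are estimates by the authors' software, so an isoform's share is less certain than the gene's level.

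**Figure D4:**
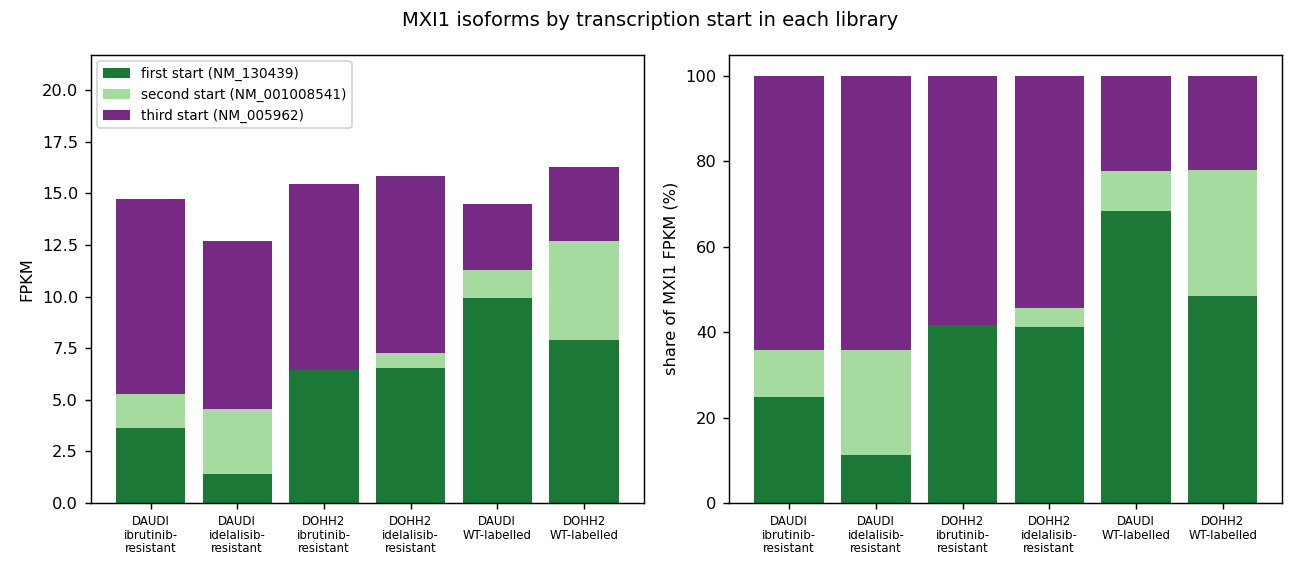
FPKM (left) and percentage share (right) of the 3 MXI1 isoforms in each library, stacked by transcription start. The third start takes 54.2% to 64.2% in resistant libraries and 22.1% in WT-labelled ones, while the total stays between 12.7 and 16.3 FPKM.

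Of the other members' isoforms, those of MLX met the rule for naming. MLX isoform NM_198204 had 11.3 and 10.6 FPKM in ibrutinib- and idelalisib-resistant DAUDI, 7.95 and 7.55 FPKM in ibrutinib- and idelalisib-resistant DOHH2, and 11.2 and 12.8 FPKM in WT-labelled DAUDI and DOHH2. It fell by 0.66 on the log2 scale in DOHH2 (SE 0.11, limma adjusted p = 0.0327), where 15.1% of isoforms were lower, and this call was lost without any 1 resistant library (limma adjusted p = 0.0589 to 0.159). NM_198205 had 2.18 and 2.01 FPKM in ibrutinib- and idelalisib-resistant DAUDI, 1.28 and 3.09 FPKM in ibrutinib- and idelalisib-resistant DOHH2, and 0.996 and 0.000133 FPKM in WT-labelled DAUDI and DOHH2. It did not pass in DAUDI (0.63, SE 0.43, limma adjusted p = 0.339) or in DOHH2 (1.61, SE 0.43, limma adjusted p = 0.0789).

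The drug states were compared within lines, 1 library against 1. MYC was lower in the ibrutinib-resistant than in the idelalisib-resistant library of each line, by ratios of 0.611 in DAUDI and 0.873 in DOHH2. With the lines as replicates, the difference was -0.45 (SE 0.19, 95% interval -1.05 to 0.15, limma adjusted p = 1). In that comparison 0 of 9 members and 0 of 12337 genes passed in limma (0% of all genes), and 212 genes had an unadjusted p under 0.05. No member differed by at least 1 within a line, as 3.5% of genes did in DAUDI and 1.08% in DOHH2. MXD4 went opposite ways, with ibrutinib over idelalisib ratios of 1.39 in DAUDI and 0.726 in DOHH2.

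Most genes of ribosome production that MYC is known to activate were, like MYC, lower in ibrutinib-resistant than in idelalisib-resistant DAUDI. Of 32 such genes, 30 were lower in ibrutinib-resistant than in idelalisib-resistant DAUDI, with a median difference of -0.40, against a median of 0.14 and 27.9% of genes below 0 among all genes. In DOHH2, 26 of the 32 were lower, with a median of -0.08 against -0.02 and 54.9% below 0 among all genes. After median-of-ratios scaling, 30 of 32 stayed below 0 in DAUDI and 19 of 32 in DOHH2. Against WT-labelled DAUDI, 24 of the 32 were lower in ibrutinib-resistant DAUDI (median -0.29, all genes 0.18), although MYC was higher there by 0.81. In idelalisib-resistant DAUDI 14 of the 32 were lower than in WT-labelled DAUDI (median 0.07, all genes 0.05), and MYC was higher by 1.51. WDR12, which assembles the large ribosomal subunit, had 4.51 and 13.1 FPKM in ibrutinib- and idelalisib-resistant DAUDI, and 19.3 and 22.8 FPKM in ibrutinib- and idelalisib-resistant DOHH2. NOP58, a core protein of box C/D small nucleolar particles, had 24.6 and 56.2 FPKM in ibrutinib- and idelalisib-resistant DAUDI, and 50.1 and 50.9 FPKM in ibrutinib- and idelalisib-resistant DOHH2. NOP2, a ribosomal RNA methyltransferase, had 12.8 and 22.0 FPKM in ibrutinib- and idelalisib-resistant DAUDI, and 17.0 and 18.3 FPKM in ibrutinib- and idelalisib-resistant DOHH2. NOP58 was chosen after its values were seen, and these differences have no replicate check. Ibrutinib-resistant DAUDI is also the library of 1.42 times the relative depth, whose part in this difference was not tested.

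Of 37 MYC-activated genes of metabolism and the cell cycle, 17 were lower in ibrutinib-resistant than in idelalisib-resistant DAUDI, with a median of 0.01, and 20 were lower in DOHH2, with a median of -0.02. Under median-of-ratios scaling these medians were -0.14 in DAUDI and 0.04 in DOHH2. CACGTG was present in 30.4% of promoters of this list and in 37.9% of those of the ribosome list.

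**Figure D5:**
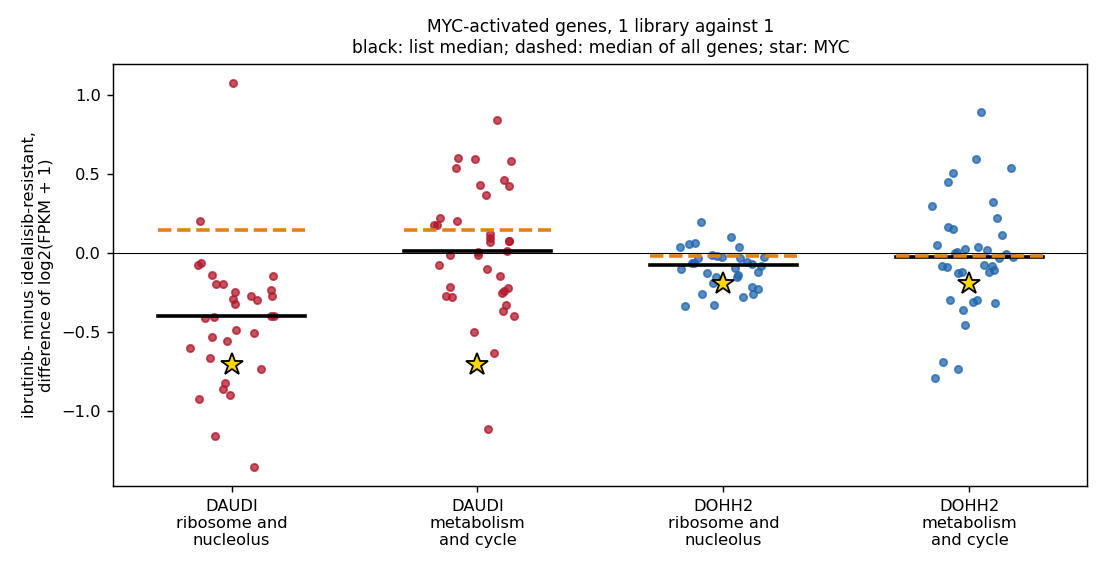
Difference of log2(FPKM + 1), ibrutinib-resistant minus idelalisib-resistant, for MYC-activated genes of ribosome and nucleolus and of metabolism and cycle in DAUDI and DOHH2; each point is a gene, black lines are list medians, dashed lines the median of all genes and stars MYC. The ribosome list in DAUDI has its median at -0.40 with the all-gene median at 0.14, and MYC at -0.71.

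Between the resistant lines, 14.2% of all genes were higher and 13.1% lower in DAUDI, against which the following counts are set. Calls of single list genes, here and below, were not checked under the alternative settings used for the members. In the ribosome list 0 of 32 were higher and 3 lower in DAUDI than in DOHH2, namely NCL, PUS7 and NOB1, with a median of -0.03 against 0.04 over all genes. NCL (nucleolin) had 148 and 182 FPKM in ibrutinib- and idelalisib-resistant DAUDI, and 269 and 274 FPKM in ibrutinib- and idelalisib-resistant DOHH2 (difference -0.72, SE 0.14, limma adjusted p = 0.0369). In the metabolism list 1 of 37 was higher and 2 were lower. Of 21 tested genes that MYC is known to repress, 5 were higher and 4 lower in DAUDI, beside 14.2% higher and 13.1% lower of all genes. The stress gene GADD45B had 21.9 and 14.9 FPKM in ibrutinib- and idelalisib-resistant DAUDI, and 2.61 and 2.44 FPKM in ibrutinib- and idelalisib-resistant DOHH2 (difference 2.44, limma adjusted p = 0.00978). CDKN1B, the cell cycle inhibitor p27, had 7.56 and 4.23 FPKM in ibrutinib- and idelalisib-resistant DAUDI, and 20.3 and 21.1 FPKM in ibrutinib- and idelalisib-resistant DOHH2 (difference -1.70, limma adjusted p = 0.03).

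Against the WT-labelled libraries, 22.3% of all genes were higher and 19.4% lower in DAUDI, and 21% higher and 19% lower in DOHH2. In the MYC-activated metabolism list 5 of 37 were higher and 6 lower in DAUDI, and 8 were higher and 6 lower in DOHH2. TFRC, the transferrin receptor, had 26.0 and 34.5 FPKM in ibrutinib- and idelalisib-resistant DAUDI, 27.0 and 23.0 FPKM in ibrutinib- and idelalisib-resistant DOHH2, and 385 and 295 FPKM in WT-labelled DAUDI and DOHH2. CCND2 (cyclin D2) was at 0.0252 to 0.689 FPKM in the 4 resistant libraries and at 92.7 and 127 FPKM in WT-labelled DAUDI and DOHH2. E2F2, a cell cycle transcription factor, had 16.3 and 19.2 FPKM in ibrutinib- and idelalisib-resistant DAUDI, 11.5 and 9.01 FPKM in ibrutinib- and idelalisib-resistant DOHH2, and 1.23 and 1.65 FPKM in WT-labelled DAUDI and DOHH2. In the ribosome list 3 were higher and 2 lower in DAUDI, and 3 higher and 0 lower in DOHH2. Of the 21 tested genes that MYC is known to repress, 2 were higher and 5 lower in DAUDI, and 4 higher and 7 lower in DOHH2. Their median was -0.0036 in DAUDI against 0.12 over all genes, and -0.62 in DOHH2 against 0.05.

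The corepressors that MXD proteins and MNT recruit included 6 of 17 higher and 0 lower than in the WT-labelled library in DAUDI, with a median of 0.35 against 0.12 over all genes, and likewise 6 of 17 higher and 0 lower in DOHH2, with a median of 0.21 against 0.05. Of all genes, 22.3% were higher and 19.4% lower in DAUDI, and 21% and 19% in DOHH2. HDAC1, a histone deacetylase, had 57.7 and 48.0 FPKM in ibrutinib- and idelalisib-resistant DAUDI, 114 and 108 FPKM in ibrutinib- and idelalisib-resistant DOHH2, and 22.4 and 21.7 FPKM in WT-labelled DAUDI and DOHH2. Resistant DOHH2 was the high pair for HDAC1. Its paralogue HDAC2 had 8.42 and 8.42 FPKM in ibrutinib- and idelalisib-resistant DAUDI, 19.3 and 21.4 FPKM in ibrutinib- and idelalisib-resistant DOHH2, and 8.65 and 7.90 FPKM in WT-labelled DAUDI and DOHH2. These were the 2 corepressors of 17 that differed between the resistant lines, both lower in DAUDI (HDAC1 -1.06, limma adjusted p = 0.0152; HDAC2 -1.18, limma adjusted p = 0.00925). In PRC1.6, the complex of MGA, 1 of 16 genes was higher (TFDP1) and 4 lower (PCGF6, TFDP2, HDAC1, HDAC2) in resistant DAUDI than in resistant DOHH2, with a median of -0.35, against 14.2% higher, 13.1% lower and a median of 0.04 over all genes. PCGF6, the Polycomb ring finger protein of that complex, had 3.13 and 2.96 FPKM in ibrutinib- and idelalisib-resistant DAUDI, and 4.86 and 5.11 FPKM in ibrutinib- and idelalisib-resistant DOHH2 (difference -0.56, limma adjusted p = 0.0467).

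In the wider helix-loop-helix family, 0 of 14 tested genes passed between the resistant lines, while against the WT-labelled library 2 were higher and 6 lower in DAUDI, and 1 higher and 5 lower in DOHH2. Over all genes, 22.3% were higher and 19.4% lower in DAUDI, and 21% and 19% in DOHH2. BHLHE40, a repressor of the circadian and immune programmes, had 0.0414 and 0.00945 FPKM in ibrutinib- and idelalisib-resistant DAUDI, 1.57 and 0.464 FPKM in ibrutinib- and idelalisib-resistant DOHH2, and 53.9 and 39.3 FPKM in WT-labelled DAUDI and DOHH2. BHLHE41, its paralogue, and TFEC were under 0.1 FPKM in each resistant library and at 21.6 to 33.8 FPKM in the WT-labelled ones. TFAP4, itself known as a MYC-activated gene, had 8.59 and 8.86 FPKM in ibrutinib- and idelalisib-resistant DAUDI, 5.84 and 6.11 FPKM in ibrutinib- and idelalisib-resistant DOHH2, and 4.15 and 3.51 FPKM in WT-labelled DAUDI and DOHH2 (DAUDI 0.92, limma adjusted p = 0.0131; DOHH2 0.63, limma adjusted p = 0.0285). USF1, which also binds the E-box, fell by 0.97 on the log2 scale in DAUDI (limma adjusted p = 0.0248) and by 1.25 in DOHH2 (limma adjusted p = 0.0151). MLXIP, the partner of MLX, did not pass in either line.

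Among 33 genes that control MYC supply and turnover, PVT1, the long non-coding RNA beside MYC, had 9.37 and 8.0 FPKM in ibrutinib- and idelalisib-resistant DAUDI, 6.78 and 8.87 FPKM in ibrutinib- and idelalisib-resistant DOHH2, and 3.54 and 3.27 FPKM in WT-labelled DAUDI and DOHH2. It rose by 1.09 in DAUDI (SE 0.22, limma adjusted p = 0.0336) and by 1.04 in DOHH2 (SE 0.22, limma adjusted p = 0.0382). PIM2, a kinase that stabilizes MYC, had 89.3 and 88.5 FPKM in ibrutinib- and idelalisib-resistant DAUDI, 49.8 and 49.3 FPKM in ibrutinib- and idelalisib-resistant DOHH2, and 232 and 256 FPKM in WT-labelled DAUDI and DOHH2. It was lower than in the WT-labelled library in both lines and higher in resistant DAUDI than in resistant DOHH2 (0.83, limma adjusted p = 0.00808). Of the 33 genes, 7 were higher and 6 lower in DAUDI, and 5 higher and 5 lower in DOHH2, against the WT-labelled library. These shares were near or below those of all genes (22.3% higher and 19.4% lower in DAUDI, 21% and 19% in DOHH2).

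The genes whose pattern over the 6 libraries was nearest to a member's were taken by the root mean square difference of centred log2(FPKM + 1) over 9261 genes. For MYC these were SETD6 (0.0877), PDDC1 (0.130), DUS2 (0.136), ZBTB24 (0.137) and RCCD1 (0.140), where the median gene lay at 0.612. SETD6 had 3.55 and 6.17 FPKM in ibrutinib- and idelalisib-resistant DAUDI, 3.41 and 3.99 FPKM in ibrutinib- and idelalisib-resistant DOHH2, and 1.40 and 1.55 FPKM in WT-labelled DAUDI and DOHH2. For MXD4 they were UBXN6 (0.0624), SH3GL1, CDC34, MEAF6 and ETS2, for MGA DDX6 (0.0463), UGP2, TOP2B, PLA2G6 and RCBTB1, and for MAX FKBP1A (0.0315), PRMT10, SLC38A1, STX17 and RAP1B.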

How the data were processed

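Strand-keeping polyA RNA libraries were made with a directional kit, per the labels' protocols. Per the submitters' processing notes, bcl2fastq, cutadapt, TopHat2, Cufflinks and hg19 were used; no source used here gives versions. The authors deposited FPKM per isoform for 43490 isoforms; isoform FPKM from such tools are model estimates. The deposited coverage signal served only for relative depth. From these, FPKM were summed by gene symbol (528 isoforms without one were left out), and log2(FPKM + 1) of 12337 genes with at least 1 FPKM in 1 library was fitted with limma 3.58.1 in R 4.3.3 (two-sided, empirical Bayes with trend, Benjamini-Hochberg over all genes tested). A log2(FPKM + 1) difference understates the change of low genes. Called means an adjusted p under 0.05. MYCN was in no test. The fit was tested on simulated data.

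Members and lists were chosen with earlier results of these data known. Named from each list were the genes with the largest differences between resistant lines or from WT-labelled libraries, the wider helix-loop-helix list in full, and isoforms whose share moved by at least 20 points; NOP58 was named after its values were seen. Alternatives were pseudocounts of 0.1 and 5, other filters, 2 rescalings, NM isoforms only, each resistant library left out, and blocks. For single genes they were examined only for the members and some of their isoforms. The isoform fit, MYC at the midpoint of its bounds and the drug-pair medians under other settings were added after seeing the data. For those medians, which have no test, a move was set against 0.152, the median over genes of the SD between the resistant libraries of a line.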

Additional observations from a re-analysis of the deposited data

How the results depend on the processing

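Of genes called, DAUDI minus DOHH2 in resistant libraries gave 3362 as reported, 0 with all 6 libraries and state as covariate, and 742 to 2985 with 1 resistant library left out. With drug state as a replicate block, which pairs the libraries of the lines, it gave 1914; without the line block, the drug comparison still gave 0 genes. Resistant minus WT-labelled gave 2032 to 4979 in DAUDI and 1648 to 4818 in DOHH2 with 1 library left out, and their difference 0 to 1461. The drug comparison gave 1 gene with a filter of 5 FPKM; it has no residual degrees of freedom with a library left out, so no such fit was made. The WT-labelled libraries could not be left out.

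MXD4 was not called with a pseudocount of 5 (0.76 in each line, limma adjusted p = 0.0574 and 0.0579) or with no filter (0.0604 and 0.0621), and MXD3 was not called with no filter or either scaling. Some values changed sign between settings, as follows. For MXD4, the difference between lines was -0.0043 with a pseudocount of 5, -0.0223 and -0.0150 with the median of ratios and upper quartile scalings, and -0.1958 without ibrutinib-resistant DOHH2, in a range of -0.2025 to 0.2124 with 1 library left out. With 1 library left out, DAUDI minus DOHH2 ran from -0.2354 to 0.1795 for MXD4 (0.1728 without idelalisib-resistant DOHH2), from -0.2044 to 0.5015 for MYC and from -0.1013 to 0.0942 for MXI1 NM_005962 (0.0279 without ibrutinib-resistant DOHH2). Between drugs, MAX was -0.0002 and -0.0132, MXD4 -0.0386 and -0.0504 and MLX -0.0136 and -0.0260 under the median of ratios and upper quartile scalings. MLX in DAUDI against WT-labelled was -0.0344 with the median of ratios. Likewise, against WT-labelled DAUDI, MXI1 ran from -0.1759 to 0.0229 and MLX NM_198204 from -0.0756 to 0.0123, and the difference between lines of MXI1 from -0.1217 to 0.0771. The metabolism medians between drugs were -0.1395 and -0.1537 in DAUDI and 0.0361 and 0.0246 in DOHH2 under the 2 scalings. The ribosome median in DAUDI was -0.5522 and -0.5673, and MYC there -0.8680 and -0.8831. The cause of these changes was not tested. FPKM carry no counts, so depth limits for low members such as MXD1 are unknown.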
